A study of Saccharomyces cerevisiae with 4 samples.

Results

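The genes of the large (60S) subunit of the cytosolic ribosome of Saccharomyces cerevisiae were taken by name, as every gene called RPL plus a number, with an A or B where the genome holds a pair of copies. This gave 73 genes on 146 spots, out of 5539 named genes and 12800 spots. The name pattern uses no measured value. The RefSeq gene table of this yeast lists 76 such genes, and 3 of them were not analysed here. The study compared RNA of BY4741 cells grown with Congo red at 30 µg/ml for 2 h with RNA of the untreated part of the same divided culture, both in YEPD at 24 °C. Congo red disturbs the assembly of the cell wall by binding its glucan and chitin, and BY4741 is a haploid MATa laboratory strain that lacks URA3, LEU2, HIS3 and MET17 in treated and untreated cells alike. The data came from 4 arrays of 1 group, each hybridised with both RNAs in 2 channels. Channel 2 held the Congo red RNA on arrays 1 and 3, and channel 1 held it on arrays 2 and 4. Whether the arrays carry separate cultures is not labelled, so p-values cover array-to-array spread alone, which can be technical.

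Ribosomal proteins assemble with rRNA in equal amounts, and most yeast ribosomal protein genes are transcribed together under Rap1, Fhl1, Ifh1 and Sfp1, which answer to nutrient and TOR signals. In growing yeast these messages are among the most abundant, and many stresses are known to lower them for a time. Most large subunit proteins are encoded by an A and a B copy that differ little in coding sequence, so signal of one copy can reach the spots of the other, and differences between copies are uncertain for that reason.

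All values are log2 ratios with the median of each array set to 0, and a positive value is read as higher with Congo red. This reading is likely rather than settled, because no source used here states the direction. The mean Pearson correlation over all genes tested between arrays of opposite channel assignment was -0.04, and the reading rests on cell wall stress genes such as NCW2, a wall protein, at 2.69, 3.27, 2.84 and 3.35 on arrays 1 to 4. Arrays 1 to 4 had values for 11931, 11609, 12297 and 12586 spots. All 146 large subunit spots had a value on every array, and 0 lay at the upper limit of the table. The 2 spots of a large subunit gene agreed closely, with a median gap of 0.047, 0.062, 0.036 and 0.033 on arrays 1 to 4. Over all genes printed as 2 spots it was 0.157, 0.250, 0.159 and 0.145. The 2 spots of a large subunit gene have consecutive numbers, so their agreement says nothing about effects of place on the array. The largest gap of a large subunit gene was 0.290, for RPL43B on array 4.

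The large subunit genes were low on arrays 1 and 3 and close to the array median on arrays 2 and 4. On array 1 their median was -0.82, with a range from -1.42 for RPL37A to 0.18 for RPL41B, and 72 of 73 lay below 0. On array 3 the median was -0.61, with a range from -1.14 for RPL37A to 0.64 for RPL41B, and 67 lay below 0. On array 2 the median was 0.13, from -0.81 for RPL1A to 1.02 for RPL41A, and 28 lay below 0. On array 4 the median was 0.10, from -0.87 for RPL43B to 0.56 for RPL4A, and again 28 lay below 0. Before the array medians were set to 0, the deposited large subunit medians were -0.51 and -1.08 on arrays 1 and 3. They were 0.16 and 0.47 on arrays 2 and 4. Over all spots the deposited medians were 0.31 and -0.46 on arrays 1 and 3, against 0.02 and 0.37 on arrays 2 and 4. The uncentred split of the large subunit genes therefore includes shifts of whole arrays.

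**Figure D1:**
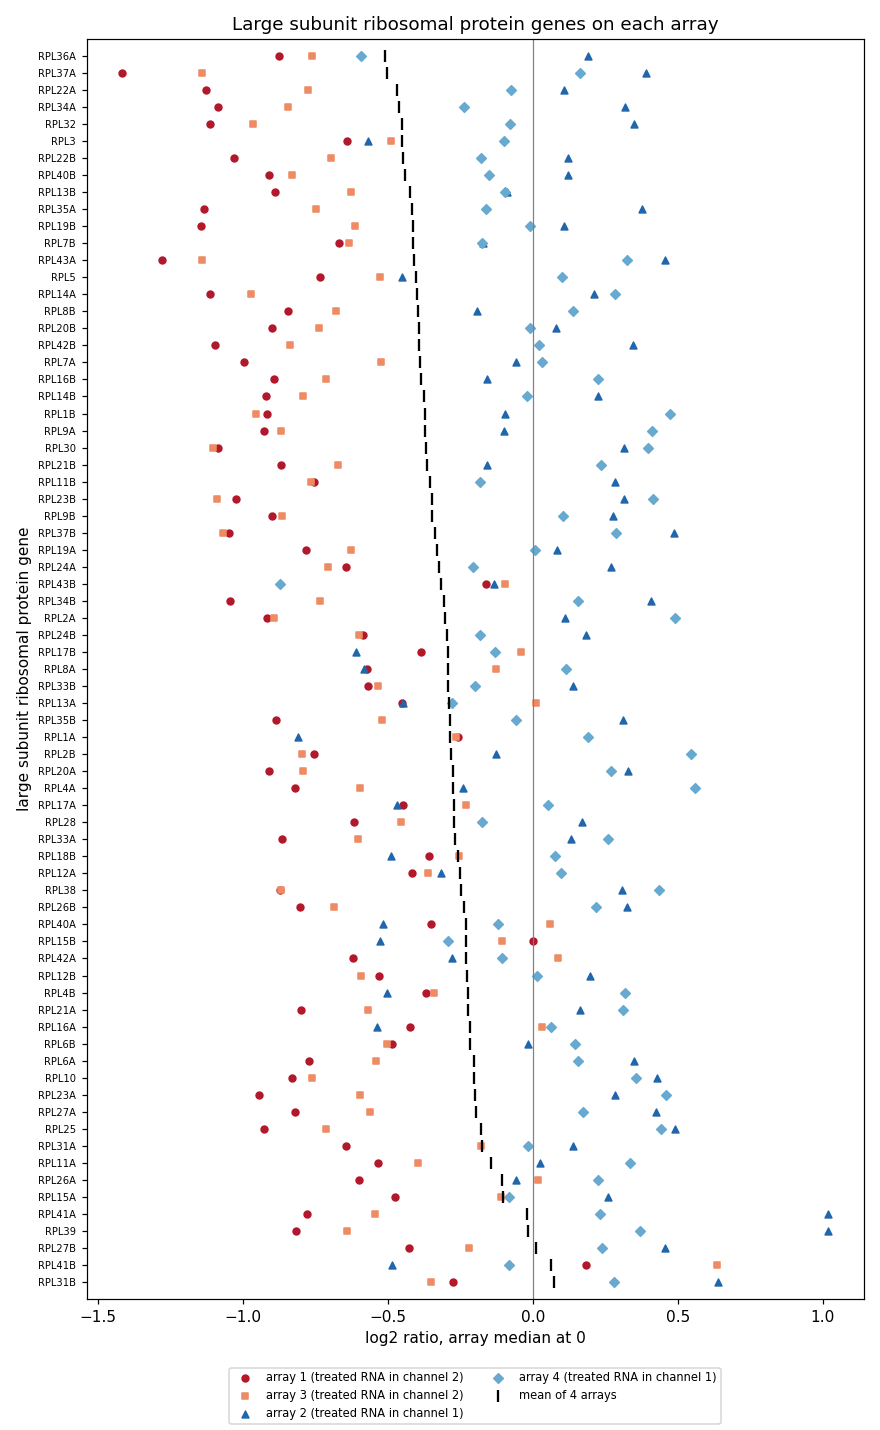
Log2 ratio (horizontal axis, array median at 0) of each of the 73 large subunit genes (rows, lowest mean at the top) on the 4 arrays, with the mean as a black bar. Red and orange points (treated RNA in channel 2) lie left of the blue points (treated RNA in channel 1) for most genes, and RPL15B and RPL41B have the opposite order.

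Over the 4 arrays, 70 of 73 large subunit genes had a mean below 0, where 52% of the 5489 genes tested did. The median of their means was -0.29. None passed the limma threshold of an adjusted p of 0.05 over all genes, and 0.0911% of all genes tested did, 5 genes, all of them higher. That count was 0 when any 1 array was left out, and also with a common spread, quantile normalization, centring by stretches of spots, a channel term or the sign of arrays 2 and 4 turned, and it was 11 without genes whose spots lay far apart in value. At an unadjusted p under 0.05 there was 1 large subunit gene, RPL3, where 2.37% of all genes tested were lower at that level. None of the 73 was higher at that level, where 5.37% of all genes tested were. The count of lower large subunit genes at that level was 0 without array 1 or array 3, without centring or with centring by stretches. It was 10 without array 2, 3 without array 4, and 24 either with a channel term or with the sign of arrays 2 and 4 turned. The share of all genes at that level in these settings is not given, so these counts were not set beside it. No large subunit gene was above 0 on all 4 arrays, where 9.54% of the genes with values on 4 arrays were. Below 0 on all 4 arrays were 6 genes, RPL3, RPL7B, RPL13B, RPL15B, RPL17B and RPL43B, or 8.22% of the 73, where 8.65% of the genes with values on 4 arrays were. Leaving out array 1, 2, 3 or 4 gave a large subunit median of -0.17, -0.42, -0.21 or -0.44, and between 62 and 72 genes with a mean below 0. The size of the shift thus depended on the array left out, from -0.17 without array 1 to -0.44 without array 4.

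Among the core proteins of the catalytic centre, RPL3 (YOR063W), whose protein reaches from the surface to the peptidyl transferase site, was at -0.64, -0.57, -0.49 and -0.10 on arrays 1 to 4. It was low on 3 arrays and near 0 on array 4. Its mean was -0.45 ± 0.16 (SE, n = 4), or 0.73-fold. In the fit without a channel term its limma adjusted p was 0.63, the smallest of the 73. With a channel term the limma adjusted p of RPL3 was 0.35, where the smallest of the 73 was 0.34. RPL10 (YLR075W), which encodes a late-joining protein that sits between the tRNA sites, was at -0.83, 0.43, -0.76 and 0.36. Both arrays with treated RNA in channel 2 were low and both others high, and the mean was -0.20 ± 0.30. RPL28 (YGL103W), whose protein forms part of the cycloheximide site, had a mean of -0.27 ± 0.18. RPL2A and RPL2B, whose shared protein lies near the catalytic centre, had means of -0.30 ± 0.30 and -0.28 ± 0.28.

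The 5S rRNA is carried into the subunit by the proteins of RPL5 and RPL11. RPL5 (YPL131W) was at -0.74, -0.45, -0.53 and 0.10 on arrays 1 to 4, with a mean of -0.40 ± 0.19 (SE, n = 4) and a limma adjusted p = 0.68. It was low on 3 arrays, array 2 included. RPL11B was at -0.76, 0.28, -0.77 and -0.18 and RPL11A at -0.54, 0.02, -0.40 and 0.33. RPL11B thus stood above 0 on array 2 alone, and RPL11A on arrays 2 and 4. Their means were -0.36 ± 0.23 for RPL11B and -0.14 ± 0.20 for RPL11A.

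Proteins at the exit of the peptide tunnel dock the factors that meet the new chain. RPL25 (YOL127W), which encodes such a docking protein, was at -0.93, 0.49, -0.71 and 0.44 on arrays 1 to 4, with a mean of -0.18 ± 0.32 (SE, n = 4). RPL39 (YJL189W), of a small protein that lines the tunnel, was at -0.82, 1.02, -0.64 and 0.37, with a mean of -0.02 ± 0.36. For both genes the mean near 0 stands over arrays of opposite sign. RPL31B, whose protein also lies near the exit, had the highest mean of the 73, at 0.07 ± 0.22, and RPL31A was at -0.18 ± 0.18. The next highest means were 0.06 ± 0.22 for RPL41B, 0.01 ± 0.20 for RPL27B and -0.02 ± 0.34 for RPL41A, each with arrays on both sides of 0.

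The lowest means belonged to RPL36A at -0.51 ± 0.23, RPL37A at -0.50 ± 0.38, RPL22A at -0.47 ± 0.26, RPL34A at -0.46 ± 0.28 and RPL32 at -0.45 ± 0.30 (SE, n = 4 each, limma adjusted p from 0.65 for RPL36A to 0.75 for RPL37A). Their proteins have no bacterial counterpart. With 1 array left out, the means ran from -0.74 to -0.39 for RPL36A, from -0.80 to -0.20 for RPL37A, from -0.66 to -0.25 for RPL22A, from -0.72 to -0.25 for RPL34A and from -0.72 to -0.23 for RPL32, lowest without array 2 and highest without array 1. Without array 1 RPL3, at -0.39, and RPL7B, at -0.33, lay below the last 4 of these. RPL36A (YMR194W) was at -0.88, 0.19, -0.76 and -0.59 on arrays 1 to 4, so array 2 alone lay above 0. RPL37A (YLR185W), of a zinc-binding protein, was at -1.42, 0.39, -1.14 and 0.16, a gap of more than 1 log2 unit between the channel assignments. RPL22B, the partner of RPL22A, was close to it at -0.45 ± 0.24. RPL7B and RPL13B, among the 5 members of smallest p, were at -0.41 ± 0.16 and -0.42 ± 0.20 (limma adjusted p = 0.64 and 0.68). Neither was under an unadjusted p of 0.05. By conservation, the 29 genes of proteins shared with bacteria had a median mean of -0.29 and the other 44 a median mean of -0.30.

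How far each gene differed between the channel assignments was measured as the channel difference, the mean of arrays 1 and 3 minus the mean of arrays 2 and 4. The median channel difference of the large subunit genes was -0.83, against 0.05 over all genes tested, and 65 of 73 lay below 0, where 46.7% of all genes did. For 58 genes both of arrays 1 and 3 lay below both of arrays 2 and 4, or 79.5%, where 29.5% of the genes with values on 4 arrays did so. The opposite order, both above, held for 2 genes, RPL15B and RPL41B, where it held for 28.2% of all genes. In the limma fit with a term for the channel, none of the 73 passed an adjusted p of 0.05, and 0% of all genes did, in either direction. At an unadjusted p under 0.05, 44 of 73 were lower with treated RNA in channel 2, or 60.3%, where 9.25% of all genes tested were. None was higher at that level, where 7.36% of all genes tested were. The count of lower genes was 2 where the deposited values were not centred, and the share of all genes in that setting is not given. With 1 array left out, 1 assignment holds a single array, so that count is not given. Since the ratio compares treated with untreated RNA on every array, the channel and whatever else separates arrays 1 and 3 from arrays 2 and 4 cannot be told apart.

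RPL43A (YPR043W), of a zinc-binding protein, had the widest split downward, at -1.28 and -1.14 on arrays 1 and 3, against 0.45 and 0.32 on arrays 2 and 4. Its channel difference was -1.60 ± 0.21 (SE, n = 4, limma adjusted p = 0.255), with no overlap between the assignments. RPL30 (YGL030W), whose protein binds its own pre-mRNA and holds back its splicing, was at -1.09 and -1.10 on arrays 1 and 3, against 0.31 and 0.40 on arrays 2 and 4, a difference of -1.45 ± 0.20. RPL23B, of a protein at the subunit interface, differed by -1.42 ± 0.20, RPL37B by -1.44 ± 0.21 and RPL37A by -1.56 ± 0.24, all with a limma adjusted p = 0.255. Differences below -1 were found for 23 genes, or 31.5%, where 6.03% of all genes tested had them. Of the single-copy genes, all 9 analysed had a negative difference, from -1.45 for RPL30 to -0.23 for RPL3, with a median of -1.19. A negative difference was held by 65 of all 73 large subunit genes and by 46.7% of all genes tested. The 64 A or B copies had a median of -0.81, from -1.60 to 0.69. The contrast of single and paired genes was not tested, and spot position was not accounted for.

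The order of the genes was alike on arrays 1 and 3. Across the 73 genes, Pearson's r was 0.85 and Spearman's rho 0.84 between these arrays, and 0.21 and 0.25 between arrays 2 and 4. Across arrays of opposite assignment, Pearson's r ran from -0.56 to -0.29, so genes that were lowest on arrays 1 and 3 tended to be higher on arrays 2 and 4. Over all genes tested, Pearson's r was 0.32 and Spearman's rho 0.60 between arrays 1 and 3, and 0.08 and 0.21 between arrays 2 and 4. Between arrays of opposite assignment these ran from -0.06 to -0.02 for r and from -0.12 to -0.06 for rho. These correlations are across genes, which are not independent replicates, and spots of 1 gene sit at the same place on every array. If the sign of arrays 2 and 4 is turned, as would be needed if the ratios ran by channel, the median of the large subunit means is -0.41. Each turned mean is by construction 0.5 times the channel difference of the gene, so this median restates it. With the sign turned, 27 of 73 lie below 0 on all 4 arrays, where 13.5% of all genes do. With that sign none of the 73 passed either, and NCW2 would lie above 0 on arrays 1 and 3 and below 0 on arrays 2 and 4.

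A group of 15 genes, singled out after their values were seen, had channel differences above -0.3. These were RPL1A, RPL3, RPL4B, RPL8A, RPL12A, RPL13A, RPL15B, RPL16A, RPL17A, RPL17B, RPL18B, RPL40A, RPL41B, RPL42A and RPL43B. RPL1A was at -0.26 and -0.26 on arrays 1 and 3, against -0.81 and 0.19 on arrays 2 and 4. RPL40A, which encodes a ribosomal protein fused to ubiquitin, was at -0.35 and 0.06 on arrays 1 and 3, against -0.52 and -0.12 on arrays 2 and 4. In both genes array 2 was the lowest of the 4, where most large subunit genes were above 0. RPL41B was at 0.18 and 0.64 on arrays 1 and 3, against -0.49 and -0.08 on arrays 2 and 4, the opposite order to most, with a channel difference of 0.69 ± 0.30 (SE, n = 4).

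Place on the array moved with this grouping. Of the 15 genes, 11 have spot numbers up to 3600, where 22 of the 73 genes lie. That limit was not planned beforehand, so these counts describe the grouping and test nothing. In the stretch of spots 3201 to 3600 all 6 large subunit genes, RPL1A, RPL12A, RPL13A, RPL15B, RPL18B and RPL40A, had channel differences between -0.28 and 0.36. The 168 other genes of that stretch had a median channel difference of 0.56. Some other stretches of low numbers were like this one and some were not. RPL17A in spots 1 to 400 and RPL16A in spots 401 to 800 were at -0.13 and 0.04. The other genes there had medians of 0.34 and 0.47. The 4 large subunit genes of spots 1601 to 2000 had a median of 0.04, beside 0.53 for the other genes. By contrast, the 6 large subunit genes of spots 2801 to 3200 had a median of -1.01 and a range from -1.45 to -0.74. The other genes of that stretch had a median of -0.20. RPL38, RPL2A and RPL19B, at lower numbers still, were at -1.24, -1.20 and -0.93. Over all stretches with large subunit genes, the median of the other genes ran from -0.33 to 0.56, so the channel difference of other genes varied along the spot numbers too. With each stretch of 400 spots centred on its own median, the median of the large subunit genes was -0.65, and 70 of 73 were below 0, of which 12 were among the 15. The exceptions were RPL8A, RPL41B and RPL43B. The part of the spot position in the values of single genes was not tested beyond this.

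**Figure D2:**
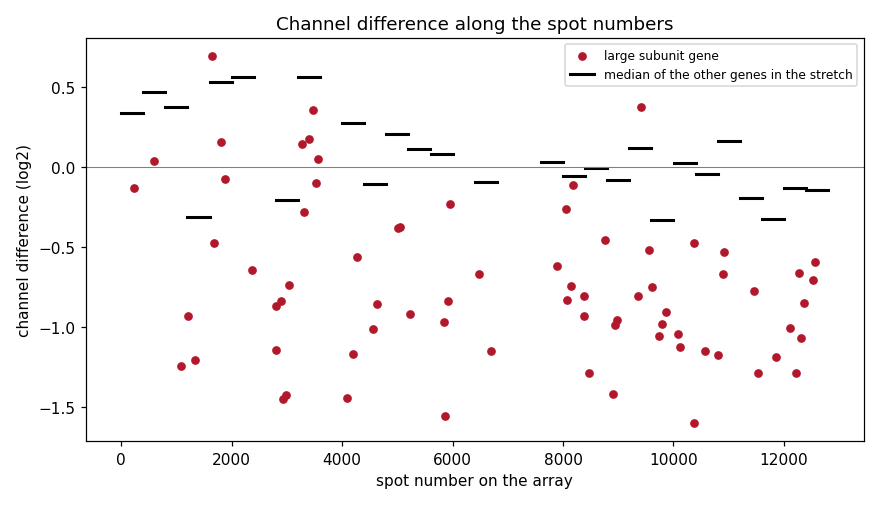
Channel difference (arrays 1 and 3 minus arrays 2 and 4, log2) of each large subunit gene against its spot number, with the median of the other genes of each stretch of 400 spots that holds a large subunit gene as a black bar. Most points lie below the bar of their stretch, and bars reach 0.56 among the low spot numbers.

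The A and B copies of 31 pairs could be set side by side. Averaged over arrays they were close: the absolute difference of the means was under 0.1 in 15 pairs and over 0.2 in 4, with a median of 0.10. On single arrays they were further apart, with a median absolute difference of 0.23 over pairs and arrays. The pairs with the largest mean difference were RPL31 at -0.25 ± 0.29, RPL11 at 0.21 ± 0.34, RPL40 at 0.21 ± 0.67 and RPL27 at -0.21 ± 0.19 (A minus B, SD over 4 arrays). In RPL27 alone of these the difference had 1 sign on all 4 arrays, at -0.39, -0.03, -0.34 and -0.06, which was so in 4 pairs of the 31. The smallest mean differences were in RPL6 at 0.01 ± 0.27 and RPL2 at -0.02 ± 0.18. No mean difference of these 6 pairs other than that of RPL27 exceeded its SD.

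Without stretches of spots centred, the channel difference did not run alike in the copies of a pair. Across the 31 pairs, Spearman's rho between the A and the B copy was 0.09 and Pearson's r was -0.05, over points that share arrays and sequence. In 16 pairs both copies were below -0.5, and in 10 pairs one copy was below -0.5 while the other was above -0.3. RPL41A, of the shortest ribosomal peptide, differed by -1.29 and its partner RPL41B by 0.69. On array 2 RPL41A was at 1.02 and RPL41B at -0.49, a gap of 1.51. RPL43A differed by -1.60 and RPL43B by 0.37. The latter rested on array 4, as RPL43B was at -0.16, -0.14, -0.10 and -0.87 on arrays 1 to 4. RPL40A differed by 0.17 and RPL40B by -0.85, although their means of -0.23 ± 0.16 and -0.44 ± 0.23 (SE, n = 4) were nearer to each other. RPL1A differed by 0.05 and RPL1B by -1.12. RPL1A and RPL40A lie in spots 3201 to 3600, where the other genes had a median of 0.56. With stretches of spots centred, these copies lay nearer to each other, at -0.32 in RPL40A and -0.75 in RPL40B. RPL1A was then at -0.44 and RPL1B at -0.95. RPL41 and RPL43 still stood apart, at -1.13 in RPL41A, 0.23 in RPL41B, -1.42 in RPL43A and 0.31 in RPL43B. The part of spot position in the gaps of pairs was not tested beyond this. Without centring by stretches, the copies lay closest in RPL9, at -1.05 in RPL9A and -1.07 in RPL9B. They also lay together in RPL37, at -1.56 in RPL37A and -1.44 in RPL37B. In RPL17 both copies were near 0 but of opposite sign, at -0.13 in RPL17A and 0.16 in RPL17B. The named pairs of this paragraph beside RPL40 and RPL41 were chosen after their values were seen.

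**Figure D3:**
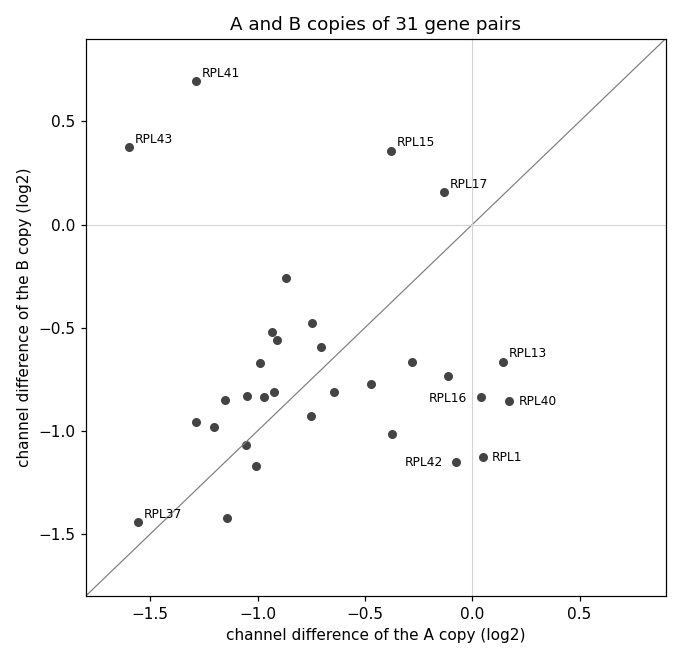
Channel difference of the A copy (horizontal) against that of the B copy (vertical) for 31 pairs, both in log2, with the line of equal values. Stretches of spots are not centred here. RPL41 and RPL43 lie far above the line and RPL1, RPL40 and RPL42 far below it, while RPL37 and RPL17 lie near it.

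Large subunit genes that lie next to another ribosomal protein gene in the RefSeq order formed 7 pairs with values, of which 4 are divergent and so share the sequence between their starts. RPL24A and RPL30 had channel differences of -0.71 and -1.45. RPL39 and its neighbour RPS22A were at -1.42 and -1.16, and RPL13B and RPS16A at -0.67 and -0.91. RPL13A was at 0.14 and its neighbour RPS16B at -0.57. Both neighbours were below 0 in 3 of these divergent pairs, and RPL13A was the exception. Below 0 lay 65 of the 73 large subunit genes, 47 of the 54 small subunit genes and 46.7% of all genes tested. The count of pairs therefore says nothing about shared sequence. RPL13A lies in spots 3201 to 3600, and with stretches of spots centred its channel difference was -0.35.

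The 54 small subunit genes had medians of -0.73 and -0.64 on arrays 1 and 3, against 0.15 and 0.17 on arrays 2 and 4, and 44 of them showed the same order of arrays without overlap, an order held by 29.5% of the genes with values on 4 arrays. None passed in either fit. RPS0A, the small subunit gene with the smallest p, was at -0.51 ± 0.13 (SE, n = 4, limma adjusted p = 0.53). The acidic stalk, which recruits translation factors to the large subunit, is encoded by RPP genes outside the name pattern. Its 5 genes had medians of -0.80 and -0.95 on arrays 1 and 3, against 0.23 and 0.40 on arrays 2 and 4. RPP1A differed between assignments by -1.51 ± 0.20, RPP2B by -1.40 ± 0.20, RPP1B by -1.22 ± 0.26, RPP2A by -1.05 ± 0.21 and RPP0 by -0.40 ± 0.35. Their means ran from -0.38 ± 0.27 for RPP2A to -0.14 ± 0.36 for RPP1A.

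For 59 factors of 60S assembly the list medians were -0.04 and 0.07 on arrays 1 and 3, against -0.03 and -0.22 on arrays 2 and 4, and the median channel difference was 0.17, with 20 of 59 below 0. PUF6, an assembly factor and the member with the smallest p, had a mean of 0.58 ± 0.20 (SE, n = 4, limma adjusted p = 0.62). Regulators of ribosomal protein genes had medians of 0.23 and 0.11 on arrays 1 and 3, against -0.04 and -0.18 on arrays 2 and 4. RAP1 was at -0.30 ± 0.24, FHL1 at 0.19 ± 0.30 and IFH1 at 0.29 ± 0.21. TOD6, which encodes a repressor of ribosome synthesis genes, was at 0.46 ± 0.18 (limma adjusted p = 0.64). SFP1 had values on arrays 3 and 4 alone, at 0.28 and -0.22, and was not tested. None of the 59 assembly factors or 14 regulators tested passed in either direction in either fit.

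Among lists outside the cytosolic ribosome, the 33 mitochondrial large subunit genes had medians of -0.28 and -0.18 on arrays 1 and 3, against 0.13 and -0.02 on arrays 2 and 4, led by MRPL8 at -0.41 ± 0.18 (SE, n = 4). Abundant messages of glycolysis and translation elongation, 21 genes, had medians of -0.41 and -0.30 on arrays 1 and 3, against -0.31 and 0.16 on arrays 2 and 4, with EFB1 at -0.42 ± 0.17. The 8 core histone genes had medians of -1.08 and -0.86 on arrays 1 and 3, against -0.08 and -0.01 on arrays 2 and 4, and all 8 showed the order without overlap that 29.5% of all genes on 4 arrays held, HTB1 with a mean of -0.62 ± 0.23 among them. None of the genes of these 3 lists passed in either fit. The cell wall markers that set the reading of the direction had medians of 1.96 and 2.11 on arrays 1 and 3, against 1.52 and 2.19 on arrays 2 and 4. The part of signal strength in these differences was not tested, since the table holds ratios alone.

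**Figure D4:**
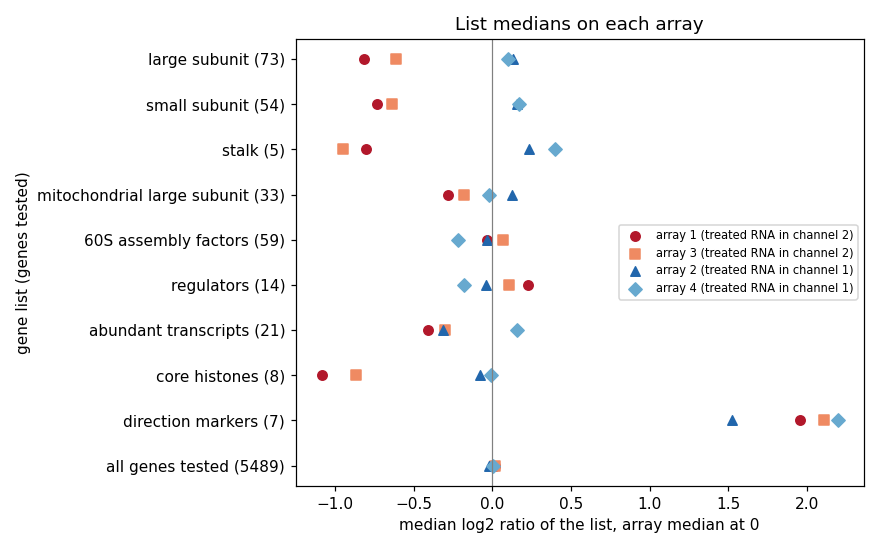
Median log2 ratio (horizontal axis, array median at 0) of each gene list on the 4 arrays, with the number of genes tested in brackets. Large subunit, small subunit, stalk and histone genes have arrays 1 and 3 well left of arrays 2 and 4, while 60S assembly factors and regulators do not.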

How the data were processed

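The deposited table gives 1 value per spot and array, which was taken as a log2 ratio from the values themselves (signed, with an upper limit equal to a ratio of 1e+05). How arrays were scanned, corrected for background and normalized, and which RNA is on top of the ratio, is not given in the sources used here. Groups and channels came from the labels. Spots were named through the platform annotation, which is old (11138 of 12800 spots had a symbol), and the 2 spots of a gene were averaged. Each array was centred on its median. Genes valued on 3 or 4 arrays were fitted with limma 3.58.1 in R 4.3.3 (lmFit and eBayes, two-sided, Benjamini-Hochberg over all genes, threshold 0.05), once for the mean against 0 and once with a channel term coded 0.5 and -0.5, which leaves 2 residual degrees of freedom. SE is limma's moderated standard error. For a mean, SE and p come from the fit without a channel term unless stated, so they include the split between channel assignments. Signal strengths were not used here. With 4 arrays, precision is limited by their number. The fits were tested on simulated data with independent noise smaller than that of the arrays. The planted shifts were larger than any seen in the large subunit genes. That test therefore checks the code and says nothing on power or error at the spread of these arrays.

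The members and lists were chosen with earlier results of these data known. Named genes were the 5 lowest and 5 highest means, the 5 smallest p-values in each fit, the 4 most and 2 least different pairs, and members with textbook roles, with the member of smallest p of each comparison list, the stalk genes and the main regulators. Any further name was picked with its values in view. Alternatives covered centring, scaling, spots, missing values, moderation, sign, a fold of 1.2 and each array left out. Coordinates are left out, as the array's genome build is unknown here.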

Additional observations from a re-analysis of the deposited data

Results flagged for a closer look

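The median channel difference of the large subunit genes, arrays 1 and 3 minus arrays 2 and 4, was -0.83, because both arrays of one channel assignment had medians below 0 and both arrays of the other had medians above 0. The difference of the list was not tested. Between single arrays the median difference over the 73 genes was -0.91 for array 1 minus array 2, -0.87 for array 1 minus array 4, -0.77 for array 3 minus array 2 and -0.65 for array 3 minus array 4, with 63, 70, 58 and 66 genes below 0.

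RPL43B stood far from its other values on array 4, at -0.87 against values from -0.16 to -0.10 on the other arrays. It was the only one of 73 genes so marked by Dixon's test for 4 values, which marks about 1 group in 20 by chance.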

How the results depend on the processing

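None of the 73 genes passed an adjusted p of 0.05 in either limma fit under any setting tried. The smallest limma adjusted p among them was 0.34 for the mean, with a channel term, and 0.13 for the channel difference, without array 4. Over all genes, 79 passed for the channel difference without centring, and 0 in its other settings. The median of the means stayed below 0 in all settings, from -0.44 without array 4 to -0.17 without array 1. The median channel difference was -1.11 without centring, against -0.83. Without centring it also carries the deposited medians of whole arrays, 0.31, 0.02, -0.46 and 0.37 on arrays 1 to 4. The median channel difference was -0.998 with quantile normalization and -0.65 with centring by stretches, and the cause of these changes was not tested. Leaving out 1 array moved it between -0.93 and -0.74, and without the members of spots 3201 to 3600, a setting chosen after seeing the data, it was -0.85. Genes below 0 on all 4 arrays numbered 0 without centring, 13 with centring by stretches and 27 with the sign of arrays 2 and 4 turned, against 6.

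Of 32 named genes over 17 settings, 24 values changed sign and none changed side of the threshold. Without centring RPL39 was at 0.041 and RPL41A at 0.040, and with a common spread RPL39 was at 0.0017. With centring by stretches RPL31B, RPL27B, RPL39 and RPL41A were at -0.014, -0.061, 0.041 and 0.064. With the lower-numbered spot alone RPL27B was at -0.0096 and RPL41A at 0.00051. With the sign of arrays 2 and 4 turned RPL31B, RPL27B and RPL40A were at -0.39, -0.33 and 0.086. With 1 array left out, the lowest and highest means were -0.36 and 0.25 for RPL39, -0.36 and 0.23 for RPL41A, -0.40 and 0.012 for RPL27A, -0.41 and 0.0073 for RPL10, -0.40 and 0.073 for RPL25, -0.12 and 0.21 for RPL31B, -0.14 and 0.16 for RPL27B and -0.13 and 0.25 for RPL41B. The channel difference with values on 2 arrays was not run, since 3 are needed. No paired analysis was possible because the arrays form 1 group, and each array already pairs treated with untreated RNA.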
